A study of Mus musculus with 18 samples.

Results

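Hearts that carried an Lmna shRNA and were given lamin A were set against control hearts of the same batch, to measure how far gene expression still stood from control after lamin A. The libraries were chosen by their labels: 3 libraries titled with the shRNA line name L881 and lamin A (the lamin A hearts) and 3 control libraries of batch LA, 6 of the 18 libraries of the series. The series sequenced RNA of mouse heart apex. It asked what follows when either lamin is supplied, by an adeno-associated virus (rAAV9), to mice with dilated cardiomyopathy after Lmna knockdown. Every animal was labelled WT in genotype. The lamin A hearts carried the treatment label of Lmna shRNA with lamin A, and the control hearts the label Control (Batch LA). The labels do not say what the control hearts received, nor the age, sex, dose or time after injection. Another 3 libraries of batch LA, labelled Lmna shRNA alone (the shRNA hearts), are given beside these as the starting point. Batch LC, with its own control, Lmna shRNA and lamin C hearts of 3 libraries each, shared no library with the lamin A hearts or their controls. Each lamin was present in 1 batch only, so the 2 lamins are compared only through the controls of their batches.

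Lamins A and C are intermediate filament proteins spliced from the single gene Lmna. They line the inner face of the nuclear envelope, where they stiffen the nucleus, anchor chromatin and connect, through inner nuclear membrane proteins and the LINC complex, to the cytoskeleton. Defects of LMNA cause dilated cardiomyopathy with conduction disease and fibrosis in people, and mouse models of it are known for raised MAPK signalling, stress responses and matrix deposition.

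The 3 lamin A libraries held 33300836, 37114966 and 40168181 counts. The 3 control libraries held 36042583, 35345372 and 32003727. Of 54532 genes, 17876 had enough counts to be tested. Levels are given as CPM, the count relative to the library total scaled by its TMM factor, and changes as log2 fold changes of lamin A over control ± standard error, from edgeR on 3 libraries a group. A gene is called when its Benjamini-Hochberg adjusted p is under 0.05. The labels do not say whether replicates came from separate cages or litters, so the p-values measure only the spread between these samples. In whole tissue, fewer cells of a type and less RNA per cell cannot be told apart. Mitochondrially encoded genes took 21.3% ± 1.15 of the counts in lamin A hearts (SD, n = 3) and 26.7% ± 0.326 in control hearts (SD, n = 3), with ranges of 20.31% to 22.58% and 26.38% to 27.02%. The difference was -5.41 percentage points, and the groups did not overlap (exact permutation test, two-sided, p = 0.1, the smallest that 3 against 3 allows). The Lmna shRNA hearts of the batch stood at 14.4% ± 0.56. All 10 cardiomyocyte markers were above 1 CPM in the controls, with Myh6, the main myosin heavy chain of the adult mouse ventricle, at 33804, 32678 and 34579 CPM. The control libraries of both batches were set against each other by the root mean square difference of log2 CPM over the tested genes. The third control library of batch LC stood 0.552 and 0.534 from the other controls of its batch and 0.481 to 0.494 from the controls of batch LA, whose own pairs stood 0.454 to 0.479 apart. In the labels its number follows that of the third control library of batch LA, and both are far from the numbers of their batches. It was kept in batch LC, as titled, and results that rest on that batch are also given without it.

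Lmna, the gene targeted by the shRNA and supplied by the virus (ENSMUSG00000028063, chromosome 3, 88480147 to 88509956, minus strand, mm10), was examined first. It had 556, 537 and 501 CPM in lamin A hearts, 127, 122 and 130.3 in shRNA hearts and 120.0, 119.6 and 112 in controls. The lamin A hearts stood above every other library of the batch, while the Lmna shRNA hearts were not below control. The change was 2.18 ± 0.085 (edgeR adjusted p = 2.39e-12) for lamin A over control and 2.07 ± 0.084 (edgeR adjusted p = 1.79e-11) for lamin A over Lmna shRNA. Lamin C hearts of the other batch had 1317, 1064 and 1375 CPM, against 122, 128 and 119.8 CPM in their controls. Their rise was larger than that of the lamin A hearts, by 1.16 on the log2 scale (edgeR adjusted p = 1.46e-05). Gene counts separate neither lamin A from lamin C transcripts nor viral from endogenous ones. Since the shRNA hearts had no fewer Lmna counts than control, the groups are called by their labels, and every direction rests on those labels.

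Against control, 8266 of 17876 genes (46.2%) were still called in lamin A hearts, 4314 higher (24.1%) and 3952 lower (22.1%). By 2-fold or more, 1736 genes were higher (9.71%) and 447 lower (2.5%), and the median change over all genes was 0.02. In 10005 genes (56%) the 3 lamin A and 3 control libraries did not overlap. The Lmna shRNA hearts of the batch, tested against the same control libraries, gave 10975 called genes (61.4%), 5784 higher (32.4%) and 5191 lower (29%), or 10637 and 2270 with library totals. With libraries scaled by their totals alone, 81.3% of called genes were higher in lamin A hearts, against 52.2% with TMM factors, and the median change over all genes was 0.26. Genes near 0 therefore take their direction from the scaling. Most list counts moved with it, and those that moved by over 1.5 times are given in both forms.

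**Figure D1:**
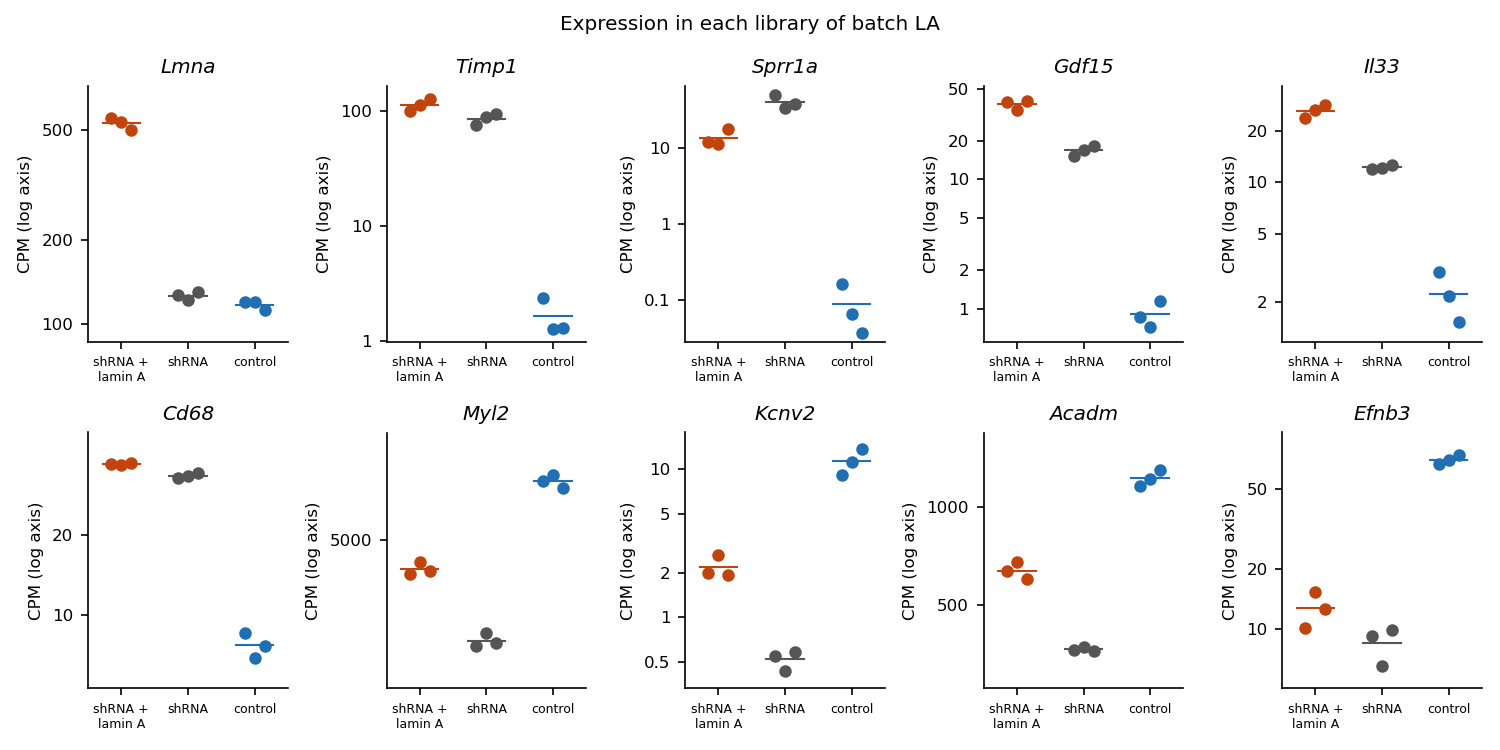
Expression of 10 genes in each library of batch LA, as CPM on a logarithmic axis, with Lmna shRNA hearts given lamin A on the left, Lmna shRNA hearts in the middle and control hearts on the right; points are libraries and lines group means. The lamin A hearts lie apart from the controls in all 10 genes, beyond the shRNA hearts for Gdf15 and Il33 and between the shRNA and control hearts for Sprr1a, Myl2, Kcnv2 and Acadm.

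Genes of the extracellular matrix stayed far above control. All 35 matrix and fibrosis genes tested were called higher in lamin A hearts, against 24.1% of all genes. In 35 of them the libraries did not overlap, against 56% of all genes. Their median change was 2.55, against 0.02 over all genes and 3.04 for the same genes in the Lmna shRNA hearts. Compared with those Lmna shRNA hearts directly, 21 of the 35 were lower in lamin A hearts and 0 higher, against 13.7% and 16.1% of all genes. With library totals, 6205 of all genes were lower and 1280 higher in that comparison, against 2449 and 2881 with TMM factors, so counts against the Lmna shRNA hearts were read only where both scalings gave them the same direction.

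Among single genes, Timp1, an inhibitor of matrix metalloproteases (ENSMUSG00000001131, chromosome X, 20870166 to 20874735, plus strand), had 98.9, 111 and 126 CPM in lamin A hearts, 75, 87.2 and 92.8 in shRNA hearts and 2.36, 1.27 and 1.3 in controls. Its distance from control was 6.07 ± 0.24 (edgeR adjusted p = 2.39e-12). The lamin A libraries all stood above the shRNA libraries, though the 0.40 ± 0.17 between those groups was not called (edgeR adjusted p = 0.0812). Tnc, which encodes tenascin C, a matrix glycoprotein of wounds and remodelling tissue, had 148, 136 and 137 CPM in lamin A hearts, 51.4, 95.2 and 89.1 in shRNA hearts and 2.86, 2.74 and 1.88 in controls, a change of 5.81 ± 0.45 (edgeR adjusted p = 4.44e-09). Both genes were high in every lamin A library and low in every control. Thbs4, a thrombospondin of the matrix, had 433, 302 and 561 CPM in lamin A hearts and 4.84, 3.92 and 5.01 in controls (6.56 ± 0.37, edgeR adjusted p = 1.23e-10). Cthrc1, which activated fibroblasts secrete, had 19.2, 12.2 and 23 CPM in lamin A hearts and 0.191, 0.131 and 0.108 in controls and changed by 6.93 ± 0.63 (edgeR adjusted p = 4.24e-08). In control hearts Cthrc1 was near the limit of detection, so that the size of its change rests on a few counts. Fmod, a proteoglycan that binds collagen, had 39, 22.9 and 62.1 CPM in lamin A hearts and 0.509, 0.686 and 0.866 in controls (5.92 ± 0.54). Comp, the cartilage oligomeric matrix protein, had 57.2, 36.8 and 76.2 CPM in lamin A hearts and 1.46, 1.4 and 1.7 in controls (5.22 ± 0.52, edgeR adjusted p of 1.08e-07 or less for both). The second lamin A library was the lowest of its group for Thbs4, Cthrc1, Fmod and Comp, yet far above every control. With library totals these were called below the shRNA hearts, at -1.04, -1.46, -1.63 and -2.01 (edgeR adjusted p of 0.00655 or less). Tnc was not called there (0.63, edgeR adjusted p = 0.126). Postn, the periostin of activated fibroblasts, had 1506, 1179.9 and 1742 CPM in lamin A hearts, 2998, 2718 and 2645 in shRNA hearts and 67.9, 68.6 and 65.1 in controls, a change of 4.46 ± 0.23 (edgeR adjusted p = 5.38e-11). The fibrillar collagen genes Col1a1 (2.69 ± 0.19) and Col3a1 (2.94 ± 0.20), the collagen cross-linking enzyme Lox (4.44 ± 0.24) and the short-chain collagen Col8a1 (3.31 ± 0.18) rose as well (edgeR adjusted p of 2.16e-09 or less).

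Markers of fibroblasts moved in the same direction: 10 of 11 were higher and 1 lower, against 24.1% and 22.1% of all genes. The median was 0.86, and with library totals 10 were higher and 0 lower. The markers summed to 4136 to 4546 CPM in lamin A libraries, 4759.8 to 5085 in Lmna shRNA libraries and 2786 to 3078 in control libraries, and the part of fibroblast number in the matrix values was not tested. Mfap5, a microfibril protein, had 219, 181 and 264 CPM in lamin A hearts and 32.2, 31.5 and 25.7 in controls (2.89 ± 0.15, edgeR adjusted p = 3.71e-11). Pi16 (1.63 ± 0.13), Dcn, the proteoglycan decorin (0.97 ± 0.082), and Ly6a (0.86 ± 0.064) rose by less than most matrix genes. Gsn, the actin-severing gelsolin, was the marker called lower, at -0.28 ± 0.10 (edgeR adjusted p = 0.0286); it was not called without lamin A library 1 or 3 or control library 1, nor with library totals, which gave -0.04 (edgeR adjusted p = 0.764).

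Fetal and stress genes of cardiomyocytes formed the second group that stayed high. Of 18 tested, 16 were higher in lamin A hearts and 0 lower, against 24.1% and 22.1% of all genes. Their median was 1.92, against 2.51 in the Lmna shRNA hearts. Sprr1a, a proline-rich protein induced in stressed cardiomyocytes (ENSMUSG00000050359, chromosome 3, 92483952 to 92485895, minus strand), had 12.1, 11.3 and 17.6 CPM in lamin A hearts, 50.4, 34 and 37.4 in shRNA hearts and 0.159, 0.0653 and 0.0361 in controls. Its change of 7.21 ± 0.54 (edgeR adjusted p = 3.16e-09) was the largest fitted change of the protein-coding genes that reached 5 CPM and whose libraries did not overlap. In controls Sprr1a was nearer the limit of detection than Cthrc1, so the size and rank of its change rest on a few counts. It was lower than in the Lmna shRNA hearts by 1.57 ± 0.24 (edgeR adjusted p = 5.93e-05). Nmrk2, a nicotinamide riboside kinase, had 164, 152 and 184 CPM in lamin A hearts, 155, 184 and 208 in shRNA hearts and 5.41, 3.79 and 4.47 in controls. Its 5.19 ± 0.31 (edgeR adjusted p = 2.62e-10) over control stood beside -0.13 ± 0.24 against the shRNA hearts (edgeR adjusted p = 0.738), and the libraries of those 2 groups overlapped. Nppa, which encodes atrial natriuretic peptide, had 3916, 2462 and 6251 CPM in lamin A hearts and 258, 287 and 208 in controls (4.07 ± 0.38, edgeR adjusted p = 5.03e-08). Nppb, which encodes brain natriuretic peptide, had 412, 389 and 522 CPM in lamin A hearts and 114, 134 and 111 in controls (1.88 ± 0.28, edgeR adjusted p = 1.52e-05). Nppa differed more than 2-fold among the lamin A libraries, with the second lowest and the third highest.

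Ankrd1, a titin-binding stress protein, had 4737, 5007 and 5515 CPM in lamin A hearts and 864, 1004 and 1007 in controls (2.41 ± 0.20, edgeR adjusted p = 1.14e-08). Myh7, the slow myosin heavy chain of the fetal mouse ventricle, had 1168, 823 and 1016 CPM in lamin A hearts and 219, 183 and 239 in controls (2.23 ± 0.33, edgeR adjusted p = 1.8e-05). The adult form Myh6 had 21864, 21002 and 18977 CPM in lamin A hearts and 33804, 32678 and 34579 in controls (-0.71 ± 0.12, edgeR adjusted p = 8.77e-05). The myosin genes thus lay on opposite sides of control in all 3 lamin A libraries. Acta1, the skeletal actin that the stressed heart re-expresses, had 993, 909 and 1121 CPM in lamin A hearts, 603, 582 and 492 in shRNA hearts and 184, 248 and 299 in controls. It was called above control (2.05 ± 0.30, edgeR adjusted p = 1.21e-05) and above the shRNA hearts (0.85 ± 0.29, edgeR adjusted p = 0.0305), the second of which was not called with library totals. Rcan1, an inhibitor of calcineurin that calcineurin signalling itself induces, changed by 1.75 ± 0.23 (edgeR adjusted p = 3.86e-06). Fhl1, a LIM protein of the sarcomere, changed by 1.48 ± 0.09, and Ddah1, which degrades methylarginines, by 1.96 ± 0.15 (edgeR adjusted p of 6.44e-09 or less). Uchl1, a deubiquitinating enzyme, stood at 1.26 ± 0.21 over control and -2.13 ± 0.18 against the shRNA hearts (edgeR adjusted p = 6e-05 and 2.07e-07).

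Genes of contraction stayed below control. Of 19 sarcomere genes, 16 were lower and 0 higher, against 22.1% and 24.1% of all genes, at a median of -0.49 (-0.75 in the shRNA hearts). Scaled by library totals, 12 were lower and 2 higher. Myl2, the regulatory light chain of ventricular myosin, had 4061, 4377 and 4126 CPM in lamin A hearts, 2612, 2817 and 2652 in shRNA hearts and 7209, 7472 and 6898 in controls. Tnni3, cardiac troponin I, had 1908, 2136 and 1957 CPM in lamin A hearts and 3551, 3543 and 4013 in controls. Cmya5, a large protein of the sarcomere edge and the dyad, had 302, 315 and 292 CPM in lamin A hearts and 608, 612 and 654 in controls. In each of these the lamin A hearts lay below every control. The changes were -0.78 ± 0.06, -0.89 ± 0.082 and -1.05 ± 0.058 for Myl2, Tnni3 and Cmya5 (edgeR adjusted p of 4.75e-08 or less). Cardiomyocyte markers, which share genes with these lists, summed to 39658 to 42542 CPM in lamin A libraries, 27975 to 29046 in shRNA libraries and 63936 to 66028 in control libraries, with 9 of 10 lower. Myh6, whose values are given above, held a large part of the lamin A and control sums.

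Ion channel genes were among the largest falls of the comparison. Of 25 channel and gap junction genes, 19 were lower and 4 higher, against 22.1% and 24.1% of all genes. Their median was -0.72, against -1.17 in the shRNA hearts. Clcn1, the muscle chloride channel (ENSMUSG00000029862, chromosome 6, 42286685 to 42315756, plus strand), had 2.48, 1.74 and 1.3 CPM in lamin A hearts, 0.495, 0.429 and 0.209 in shRNA hearts and 10.3, 8.33 and 15.7 in controls, a change of -2.64 ± 0.27 (edgeR adjusted p = 1.55e-07). Kcnv2, a modifier subunit of voltage-gated potassium channels, had 1.99, 2.65 and 1.93 CPM in lamin A hearts, 0.543, 0.429 and 0.58 in shRNA hearts and 9.23, 11.3 and 13.7 in controls, a change of -2.38 ± 0.20 (edgeR adjusted p = 1.72e-08). Both were called above the shRNA hearts (by 2.26 ± 0.38 and 2.07 ± 0.27, edgeR adjusted p = 0.000149 and 1.1e-05) and still stood below every control. Kcnip2, the auxiliary subunit that sets the fast transient outward current, had 74.7, 77.7 and 71.9 CPM in lamin A hearts and 238, 241 and 226 in controls (-1.65 ± 0.14, edgeR adjusted p = 1.43e-08). Kcnj3 (-1.60 ± 0.14) and Kcnj5 (-0.92 ± 0.067), the subunits of the muscarinic potassium channel, and Kcnj11 (-0.89 ± 0.064) and Abcc9 (-1.13 ± 0.084), subunits of the ATP-sensitive potassium channel, fell too (edgeR adjusted p of 2.34e-08 or less). Kcnj5 was no nearer control than in the shRNA hearts, at 54.3, 57.3 and 52.4 CPM in lamin A hearts, 56.8, 52.3 and 56 in shRNA hearts and 100.1, 100.4 and 111 in controls.

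The channel genes called higher included Kcne1, the beta subunit of the slow delayed rectifier (1.66 ± 0.16, edgeR adjusted p = 1.01e-07), and Gja5, the connexin of the conduction system (0.37 ± 0.13, edgeR adjusted p = 0.0259). Gja5 was not called without lamin A library 2 or 3 or control library 1 or 2. Scn4b, a sodium channel beta subunit, had 11.9, 14.3 and 7.22 CPM in lamin A hearts, 0.755, 1.76 and 1.46 in shRNA hearts and 16.6, 18.1 and 31.2 in controls. Its -0.98 ± 0.28 (edgeR adjusted p = 0.00684) against control became -0.65 (edgeR adjusted p = 0.0715) without the third control library, which was the highest.

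Among 15 calcium handling genes, 10 were lower and 1 higher, against 22.1% and 24.1% of all genes, at a median of -0.39. Scaled by library totals, 9 were lower and 4 higher. Pln, the inhibitor of the sarcoplasmic reticulum calcium pump, had 3428, 3877 and 3443 CPM in lamin A hearts and 7118, 7179 and 7197 in controls (-1.0 ± 0.068, edgeR adjusted p = 1.03e-09). The pump itself, Atp2a2, had 8438, 9417 and 8152 CPM in lamin A hearts and 14841, 14711 and 15466 in controls (-0.79 ± 0.098, edgeR adjusted p = 1.95e-06). Pump and inhibitor both lay below every control. Hrc, the histidine-rich calcium-binding protein of the sarcoplasmic reticulum, fell by 1.12, the ryanodine receptor Ryr2 by 0.75, Trdn by 0.66 and Jph2, which tethers the dyad, by 0.53 on the log2 scale (edgeR adjusted p of 1.96e-06 or less). The gene called higher was Fkbp1b, the small ryanodine receptor-binding protein, at 1.18, 1.52 and 1.15 CPM in lamin A hearts and 0.286, 0.588 and 0.361 in controls (1.63 ± 0.26, edgeR adjusted p = 4.27e-05).

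Genes of oxidative metabolism stayed low across long lists. Of 27 fatty acid oxidation genes, 26 were lower than control and 0 higher, against 22.1% and 24.1% of all genes. Their median was -0.80, against -1.60 in the shRNA hearts. Against the shRNA hearts directly, 26 were higher and 0 lower, beside 16.1% and 13.7% of all genes. Acadm, the medium-chain acyl-CoA dehydrogenase, had 633, 677 and 602 CPM in lamin A hearts, 363, 372 and 360.2 in shRNA hearts and 1158, 1218 and 1301 in controls, and its libraries separated into 3 levels with no overlap. The change from control was -0.94 ± 0.063 (edgeR adjusted p = 7.61e-10). Hadh (-1.01 ± 0.085), Etfdh, which passes electrons from fat oxidation to ubiquinone (-0.90 ± 0.077), and the fatty acid transporter Slc27a1 (-0.89 ± 0.077) fell by similar amounts (edgeR adjusted p of 2.11e-08 or less). Ppara, the nuclear receptor that drives these genes, had 10.4, 6.23 and 5.7 CPM in lamin A hearts and 17.6, 16.2 and 19.2 in controls (-1.25 ± 0.18, edgeR adjusted p = 1.1e-05). The gene not called was Pdk4, the kinase that restrains pyruvate oxidation, with 1145, 1108 and 720.3 CPM in lamin A hearts, 445, 329 and 317 in shRNA hearts and 846, 819 and 784 in controls (0.28 ± 0.36, edgeR adjusted p = 0.554). The third lamin A library was the lowest of its group for Pdk4 and for the uncoupling protein Ucp3, which had 81.7, 87 and 39.3 CPM in lamin A hearts and 119.7, 115 and 110.3 in controls (-0.73 ± 0.22, edgeR adjusted p = 0.00996) and was not called with library totals (-0.49, edgeR adjusted p = 0.068).

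All 40 nuclear genes of the respiratory chain were called lower (34 with library totals), beside 22.1% of all genes with TMM factors. Their median was -0.53, against -1.07 in the shRNA hearts. Set against the shRNA hearts, 39 of them were higher, beside 16.1% of all genes. Atp5a1, a subunit of ATP synthase, had 2930.3, 3065 and 2869.7 CPM in lamin A hearts and 4724, 4770.3 and 4988 in controls. Sdha, of complex II, had 983, 1039 and 942 CPM in lamin A hearts and 1650.3, 1665 and 1738 in controls. Their changes were -0.71 ± 0.055 and -0.77 ± 0.063 (edgeR adjusted p of 1.05e-08 or less), and Ndufv1, of complex I, stood at -0.62 ± 0.053. Of 13 mitochondrially encoded genes 9 were lower and 0 higher, with mt-Nd1 at -0.67 ± 0.081 and mt-Cytb at -0.51 ± 0.069 (edgeR adjusted p of 5.9e-06 or less). Single values of these genes are uncertain, because the nuclear genome holds copies of them. Glucose uptake and glycolysis genes were mixed, with 6 higher and 11 lower of 21 (7 and 6 with library totals), against 24.1% and 22.1% of all genes. Slc2a4, the insulin-responsive glucose transporter, had 204, 206 and 203 CPM in lamin A hearts and 386, 396 and 392 in controls (-0.94 ± 0.097, edgeR adjusted p = 1.84e-07). Slc16a3, a monocarboxylate exporter, had 6.58, 7.51 and 6.38 CPM in lamin A hearts and 1.21, 1.4 and 1.19 in controls (2.42 ± 0.20, edgeR adjusted p = 8.89e-09). The muscle isoforms Pfkm (-0.72 ± 0.066) and Eno3 (-0.86 ± 0.075) and the heart lactate dehydrogenase Ldhb (-0.89 ± 0.064) fell (edgeR adjusted p of 3.88e-08 or less).

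**Figure D2:**
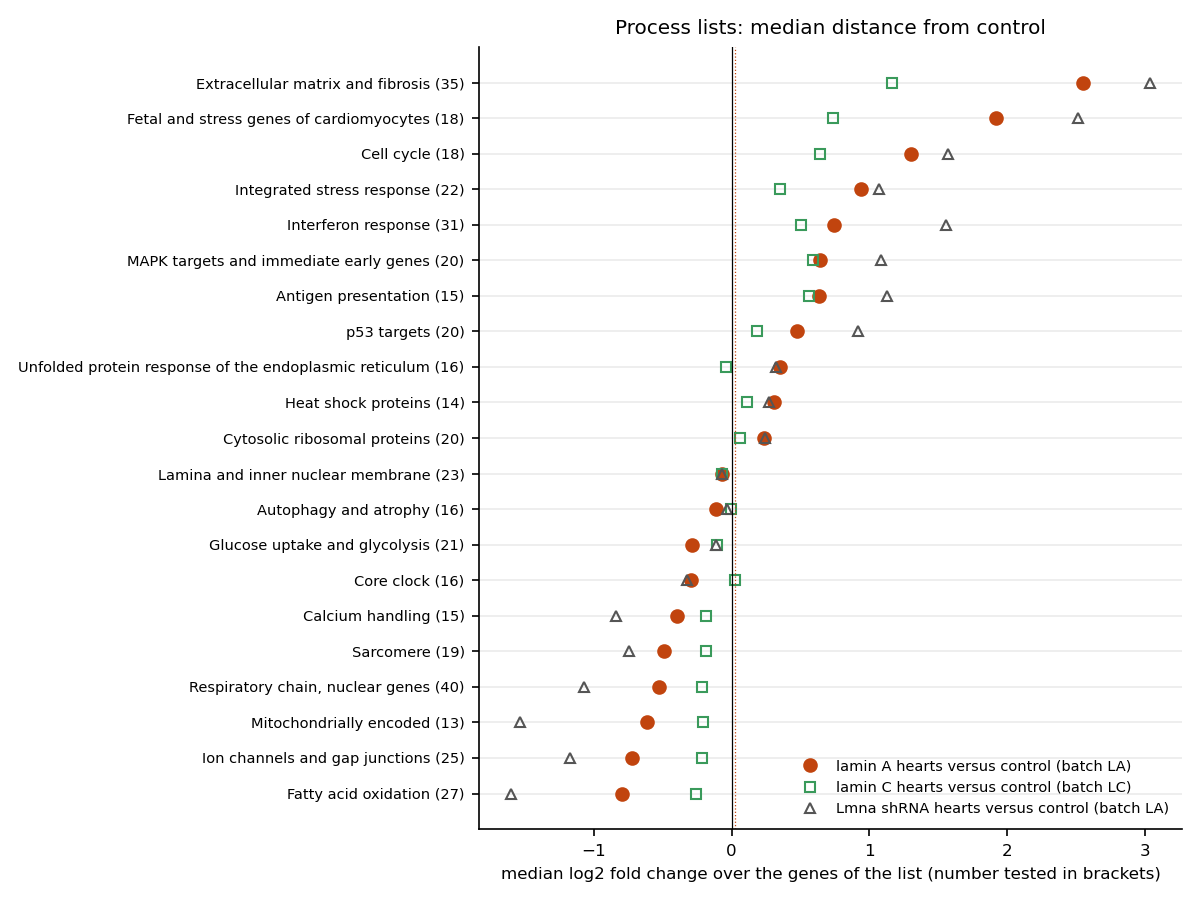
Median log2 fold change over each of 21 process lists for lamin A hearts versus control (filled circles), lamin C hearts versus control (squares) and Lmna shRNA hearts versus control of batch LA (triangles, sharing the control libraries of the circles). Solid and dotted vertical lines mark 0 and the median of all genes for lamin A hearts. Matrix genes at 2.55 and fatty acid oxidation genes at -0.80 stand at the ends of the lamin A values.

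In the stress responses of the cell more genes were higher than lower. Of 22 genes of the integrated stress response, which slows translation and induces ATF4 targets, 13 were higher than control and 4 lower. The shares of all genes were 24.1% and 22.1%, and the list median was 0.94. Gdf15, a circulating stress cytokine (ENSMUSG00000038508, chromosome 8, 70629393 to 70632456, minus strand), had 39.9, 34.7 and 40.8 CPM in lamin A hearts, 15.1, 17 and 18.3 in shRNA hearts and 0.859, 0.718 and 1.15 in controls. The lamin A hearts were the highest of the batch in every library. Gdf15 stood 5.41 ± 0.24 (edgeR adjusted p = 4.25e-12) over control and 1.19 ± 0.16 (edgeR adjusted p = 1.73e-05) over the shRNA hearts. The serine and one-carbon enzymes Psat1 (1.89 ± 0.13) and Mthfd2 (1.81 ± 0.14), the asparagine synthetase Asns (1.32 ± 0.21), the stress regulator Nupr1 (1.92 ± 0.17) and the transcription factor Atf3 (2.71 ± 0.23) rose (edgeR adjusted p of 4.27e-05 or less). Atf3 had 20.8, 21.1 and 28.9 CPM in lamin A hearts, 37, 37.8 and 28.5 in shRNA hearts and 3.12, 3.59 and 4.15 in controls. Members called lower included Vldlr, a receptor of triglyceride-rich lipoproteins, with 209, 215 and 191 CPM in lamin A hearts and 381, 409 and 441 in controls (-1.0 ± 0.063, edgeR adjusted p = 4.33e-10), and Cth, the cystathionine lyase (-2.19 ± 0.30, edgeR adjusted p = 6.16e-06).

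The unfolded protein response raises chaperones when proteins misfold in the endoplasmic reticulum. Of 16 genes, 11 were higher in lamin A hearts than in control and 1 lower, against 24.1% and 22.1% of all genes. The median was 0.35. In the shRNA hearts, set against the same controls, 10 were higher and 2 lower (14 and 1 with library totals), at a median of 0.32. Lamin A hearts set against shRNA hearts gave 6 higher and 2 lower, but 1 and 4 with library totals, so no direction is given for the list there. Sdf2l1, a chaperone cofactor of the endoplasmic reticulum, had 10.6, 16.2 and 12.5 CPM in lamin A hearts, 7.36, 9.95 and 8.53 in shRNA hearts and 6.62, 5.39 and 6.28 in controls. Its changes were 1.11 ± 0.17 (edgeR adjusted p = 3.19e-05) over control and 0.61 ± 0.17 (edgeR adjusted p = 0.00884) over the shRNA hearts. Creld2, a secreted stress-induced disulfide isomerase, had 21.2, 29.2 and 26.8 CPM in lamin A hearts, 16.4, 19.9 and 19 in shRNA hearts and 14.5, 14.8 and 13 in controls. It stood 0.87 ± 0.11 (edgeR adjusted p = 3.7e-06) over control and 0.48 ± 0.11 (edgeR adjusted p = 0.00242) over the shRNA hearts. The changes over the shRNA hearts were not called for either gene with library totals. In both genes the second lamin A library was the highest, and the groups of lamin A and control libraries did not overlap. The disulfide isomerases Pdia4 (0.94 ± 0.12), Pdia3 (0.71 ± 0.091) and Pdia6 (0.68 ± 0.10) rose over control, as did the degradation factor Edem1 (0.67 ± 0.066) and the secreted chaperone Manf (0.57 ± 0.15), all with an edgeR adjusted p of 0.0044 or less. Hspa5, the central chaperone BiP, had 749, 1020.4 and 798 CPM in lamin A hearts, 562, 633 and 603 in shRNA hearts and 793, 796 and 807 in controls and was not called against control (0.10 ± 0.12, edgeR adjusted p = 0.509), though it was with library totals (0.33, edgeR adjusted p = 0.0202). It was above the shRNA hearts (0.51 ± 0.12, edgeR adjusted p = 0.00221). Herpud1 was the member called lower (-0.66 ± 0.15, edgeR adjusted p = 0.00116).

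Promoter sequence is shown for 3 stress responses, those of misfolded protein, ATF4 and interferon, because each is known to act through a short element in the promoters of its targets. Windows from 250 bases before to 50 bases after each RefSeq start site (GRCm38.p6, 32851 windows) were searched on both strands, and 2 members of each list are printed, those with the smallest adjusted p whose matches all lay before the start. The 250 bases before the start run 5′ to 3′ along the gene, with the match in capitals. A match of these letters is a description and not a measured site. The endoplasmic reticulum stress response element, CCAAT and CCACG with 9 bases between them, was found in 0.119% of all windows, or 0.137% of all genes with a window. It was found in 7 of the 15 genes of the unfolded protein response list that had a window. Of those 7, 4 were called higher and 0 lower, beside 11 and 1 of the 16 genes of the list. In Creld2 the match lies on the opposite strand.
Creld2 (chr15:88819396-88819645, plus strand): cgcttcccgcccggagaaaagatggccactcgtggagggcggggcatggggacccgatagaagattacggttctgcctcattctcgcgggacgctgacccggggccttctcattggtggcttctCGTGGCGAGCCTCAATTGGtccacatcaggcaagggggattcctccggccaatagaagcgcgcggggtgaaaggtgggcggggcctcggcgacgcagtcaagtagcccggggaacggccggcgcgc
Pdia6 (chr12:17266339-17266588, plus strand): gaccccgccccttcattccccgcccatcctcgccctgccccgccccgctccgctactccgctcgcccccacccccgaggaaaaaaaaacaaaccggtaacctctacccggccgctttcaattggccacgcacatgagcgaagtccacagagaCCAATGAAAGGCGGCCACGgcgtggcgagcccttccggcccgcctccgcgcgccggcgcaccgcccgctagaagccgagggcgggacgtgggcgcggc

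The C/EBP-ATF response element, TGATGCAA, at which ATF4 and C/EBP proteins bind as pairs, was found in 0.895% of all windows, or 1.03% of all genes with a window. It was found in 6 of 19 genes of the integrated stress response list, 4 called higher and 1 lower, beside 13 and 4 of the 22 genes of the list. Vldlr, which fell, and Atf3, which rose, both carried it, on the opposite strand.
Vldlr (chr19:27216770-27217019, plus strand): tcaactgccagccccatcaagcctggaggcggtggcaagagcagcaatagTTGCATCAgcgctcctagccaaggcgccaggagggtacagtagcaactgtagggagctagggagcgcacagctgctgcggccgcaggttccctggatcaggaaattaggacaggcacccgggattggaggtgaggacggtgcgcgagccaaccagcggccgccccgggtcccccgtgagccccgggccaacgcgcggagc
Atf3 (chr1:191183334-191183583, minus strand): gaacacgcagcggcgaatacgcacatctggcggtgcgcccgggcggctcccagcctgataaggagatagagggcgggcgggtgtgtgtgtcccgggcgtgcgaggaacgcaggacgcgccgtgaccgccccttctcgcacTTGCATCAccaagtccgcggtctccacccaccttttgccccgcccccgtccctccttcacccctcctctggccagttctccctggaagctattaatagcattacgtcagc

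Interferon response genes were raised over control but were lower than in the shRNA hearts. Of 31 genes, 23 were higher than control and 0 lower, against 24.1% and 22.1% of all genes, at a median of 0.74. All 31 were called lower than in the shRNA hearts, against 13.7% of all genes. The median distance of the shRNA hearts from control was 1.56. Zbp1, a sensor of nucleic acids, had 8.98, 7.72 and 10.3 CPM in lamin A hearts, 20.4, 28.6 and 22.4 in shRNA hearts and 1.72, 1.53 and 1.77 in controls (2.43 ± 0.19, edgeR adjusted p = 5.07e-09). Ifitm3, a membrane protein that blocks virus entry, had 131, 141 and 149.9 CPM in lamin A hearts, 165, 198 and 185 in shRNA hearts and 73, 65.9 and 59 in controls (1.09 ± 0.075, edgeR adjusted p = 1.14e-09). The chemokine Cxcl10 had 4.01, 4.84 and 4.18 CPM in lamin A hearts, 7.69, 13.1 and 8.67 in shRNA hearts and 0.382, 0.425 and 0.866 in controls (2.98 ± 0.43, edgeR adjusted p = 1.22e-05). In these genes the lamin A libraries lay between the shRNA and control libraries with no overlap. Ifi27l2a (2.04 ± 0.16), Isg15 (1.40 ± 0.17), Oas1a (1.40 ± 0.14), Ifit3 (1.24 ± 0.14) and Irf7, the transcription factor that amplifies the response (1.13 ± 0.12), rose as well (edgeR adjusted p of 1.79e-06 or less). Antigen presentation genes were higher in 13 of 15 cases and lower in 0, with B2m at 0.83 ± 0.11 and H2-D1 at 0.59 ± 0.09; without lamin A library 1 or control library 2 the count was 7. The interferon-stimulated response element, searched as GAAA and GAAA with 2 bases between them, was found in 3.44% of all promoter windows, or 3.99% of all genes with a window. It was found in 14 of 22 interferon genes with a window, 11 of them called higher and 0 lower, beside 23 and 0 of the 31 genes of the list. Both examples hold it in 2 copies, which in Oas1a overlap and in Ifit3 lie on the opposite strand.
Oas1a (chr5:120907526-120907775, minus strand): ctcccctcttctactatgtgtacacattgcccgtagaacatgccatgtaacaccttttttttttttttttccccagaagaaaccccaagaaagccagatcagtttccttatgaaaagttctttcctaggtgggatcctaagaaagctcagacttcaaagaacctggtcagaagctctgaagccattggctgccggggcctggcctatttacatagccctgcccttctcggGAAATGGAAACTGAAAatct
Ifit3 (chr19:34583279-34583528, plus strand): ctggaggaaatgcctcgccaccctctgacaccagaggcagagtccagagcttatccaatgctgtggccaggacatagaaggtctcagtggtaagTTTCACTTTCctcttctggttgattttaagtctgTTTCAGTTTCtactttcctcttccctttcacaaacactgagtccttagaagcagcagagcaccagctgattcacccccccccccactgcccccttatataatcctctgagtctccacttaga

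Other stress and growth lists were mostly higher, where 24.1% of all genes were called higher and 22.1% lower. Heat shock proteins rose in 9 of 14 cases and fell in 1. The inducible Hspa1b had 5.2, 5.51 and 9.76 CPM in lamin A hearts, 31.6, 28.3 and 28.4 in shRNA hearts and 1.18, 1.14 and 1.77 in controls (2.34 ± 0.25, edgeR adjusted p = 3.26e-07), with the third lamin A library highest of its group. The mitochondrial chaperonin Hspd1 stood at -0.48 ± 0.072 (edgeR adjusted p = 2.03e-05). Of 20 targets of p53, 14 were higher and 2 lower, at a median of 0.47. The cell cycle inhibitor Cdkn1a had 96.8, 88.3 and 103 CPM in lamin A hearts, 182, 176 and 162 in shRNA hearts and 32.1, 37.1 and 26.5 in controls (1.59 ± 0.21, edgeR adjusted p = 4.78e-06). Phlda3, a p53-induced repressor of Akt, stood at 1.59 ± 0.088 (edgeR adjusted p = 1.03e-10). Of 20 MAPK targets, immediate early genes included, 14 were higher and 0 lower. Those higher included the transcription factors Egr2 (3.12 ± 0.29), Egr3 (2.48 ± 0.25) and Etv5 (0.84 ± 0.10). All 18 cell cycle genes were higher, at a median of 1.3, from low levels. Birc5, of the chromosomal passenger complex, had 4.1, 3.82 and 4.57 CPM in lamin A hearts and 1.18, 1.4 and 0.902 in controls (1.83 ± 0.26, edgeR adjusted p = 7.65e-06). The replicative helicase subunit Mcm6 had 21.6, 22.5 and 19.3 CPM in lamin A hearts and 9.45, 9.27 and 10.4 in controls (1.13 ± 0.081, edgeR adjusted p = 2.16e-09). Cytosolic ribosomal protein genes were higher in 18 of 20 cases and lower in 0 by a median of 0.23, a size near the shift between scalings; Rpl3 stood apart at 0.88 ± 0.073.

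Markers of immune cells were measured as well. Of 16 macrophage and monocyte markers 15 were higher and 0 lower, against 24.1% and 22.1% of all genes. Their median was 1.72, against 2.03 in the shRNA hearts. They summed to 1502 to 1626 CPM in lamin A libraries, 1721 to 1864 in shRNA libraries and 508 to 542 in control libraries. Cd68, a lysosomal protein of phagocytes, had 36.6, 36.5 and 36.9 CPM in lamin A hearts, 32.5, 33 and 33.8 in shRNA hearts and 8.59, 6.96 and 7.68 in controls (2.24 ± 0.084, edgeR adjusted p = 2.39e-12). Lgals3, which encodes galectin 3, had 51, 44.9 and 55.9 CPM in lamin A hearts, 178, 151 and 150.4 in shRNA hearts and 2.48, 1.96 and 2.13 in controls (4.53 ± 0.19, edgeR adjusted p = 2.86e-12). The complement genes C1qa (1.60 ± 0.064) and C1qc (1.65 ± 0.065), Trem2, a lipid-sensing receptor (2.68 ± 0.14), and Ccr2, the chemokine receptor of recruited monocytes (2.43 ± 0.21), rose. Cd163, a marker of resident macrophages, was the member not called, at 21.9, 24.4 and 18.6 CPM in lamin A hearts and 22.4, 29.2 and 23.5 in controls (-0.21 ± 0.22, edgeR adjusted p = 0.456). The part of macrophage number in the interferon, antigen presentation and stress values was not tested.

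Beside the counts of cell type markers that follow, 24.1% of all genes were called higher and 22.1% lower. A count near those shares does not set a list apart from all genes. T and natural killer cell markers were called higher in 3 of 14 cases (8 with library totals and 5 without control library 3). Of the 14, 1 reached 1 CPM in controls, and their sum was 9.64 to 10.6 CPM in lamin A libraries and 4.84 to 5.49 in control libraries. Of 10 B cell markers 1 was higher and 1 lower, and neutrophil markers 1 higher of 5. Endothelial markers were lower in 5 of 12 and higher in 0 with TMM factors, and lower in 0 and higher in 3 with library totals. Smooth muscle and pericyte markers were 1 higher and 4 lower of 10, and 4 and 3 with library totals. Atrial markers, which share Nppa with the fetal genes, held 3 higher and 2 lower of 7, and skeletal muscle markers, which share Acta1, 4 higher of 8. With library totals atrial markers held 5 higher and 1 lower, and without lamin A library 3 skeletal muscle markers held 2 higher and 1 lower. Adipocyte markers held 1 lower of 5 and Schwann cell markers 2 higher of 7. With library totals the adipocyte count was 1 higher and 0 lower, and Schwann cell markers numbered 3, with 0 without control library 3 and 1 without lamin A library 2 or control library 1. Among 5 erythroid and 5 mesothelial markers edgeR called 0, with 0 at an unadjusted p under 0.05 and 0 by DESeq2, while without the filter on low counts it called all 5 erythroid markers lower.

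Other genes of the nuclear lamina moved less than Lmna. Of 23 genes of the lamina, the inner nuclear membrane, the LINC complex and lamin processing, 4 were higher and 8 lower at a median of -0.07. Of all genes, 24.1% were called higher and 22.1% lower. With library totals the lamina list held 11 higher and 1 lower at 0.17. Its direction thus changed with the scaling. Tmem43, an inner nuclear membrane protein mutated in an inherited cardiomyopathy, had 47.7, 46.2 and 53.8 CPM in lamin A hearts, 71.7, 68.8 and 72.1 in shRNA hearts and 30.2, 29.3 and 28 in controls (0.76 ± 0.071, edgeR adjusted p = 5.49e-08). Tmem201, a partner of the LINC complex, had 76.8, 83.6 and 74.8 CPM in lamin A hearts, 46.4, 52.4 and 52.2 in shRNA hearts and 124, 126 and 124 in controls (-0.67 ± 0.065, edgeR adjusted p = 9.02e-08). The B-type lamins Lmnb1 and Lmnb2 stood at 0.55 ± 0.15 (edgeR adjusted p = 0.00533) and 0.43 ± 0.099 (edgeR adjusted p = 0.00126), and Emd, the lamin-binding emerin, at 0.11 ± 0.087 (edgeR adjusted p = 0.334). With library totals Emd was called, at 0.34 (edgeR adjusted p = 0.00267). Sun1, an inner membrane component of the LINC complex, had 46.9, 42.1 and 44.4 CPM in lamin A hearts, 45.8, 43 and 44.3 in shRNA hearts and 59.8, 55.4 and 57.1 in controls (-0.37 ± 0.055, edgeR adjusted p = 1.85e-05), at the level of the shRNA hearts, and was not called with library totals.

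Autophagy and atrophy genes held 4 higher and 7 lower of 16 (7 and 5 with library totals), against 24.1% and 22.1% of all genes. The lysosomal protease Ctsb stood at 0.79 ± 0.054 and the ubiquitin ligase Trim63 at -0.48 ± 0.07. Of 16 genes of the core clock, 2 were higher and 8 lower (5 lower with library totals). The clock output gene Dbp had 16.5, 19.2 and 8.93 CPM in lamin A hearts, 16.8, 16.2 and 23.5 in shRNA hearts and 44.8, 34.5 and 48.8 in controls (-1.53 ± 0.44, edgeR adjusted p = 0.0076). Per3 had 10.4, 9.11 and 7.07 CPM in lamin A hearts, 11.2, 8.78 and 10.5 in shRNA hearts and 21, 16.1 and 21.5 in controls (-1.14 ± 0.30, edgeR adjusted p = 0.00439). Nr1d2, a repressor of Arntl, had 66.4, 66.3 and 47 CPM in lamin A hearts, 64.2, 64.6 and 72.5 in shRNA hearts and 119, 112 and 123 in controls (-0.98 ± 0.17, edgeR adjusted p = 7.25e-05). In CPM these lay below every control in all libraries of both groups that carried the shRNA. With library totals the shRNA hearts against control were called for Nr1d2 (-0.37, edgeR adjusted p = 0.0475). Dbp (-0.74, edgeR adjusted p = 0.126) and Per3 (-0.50, edgeR adjusted p = 0.132) were not called there. Arntl had 33.4, 29.8 and 35.7 CPM in lamin A hearts and 21.4, 23.9 and 24 in controls, with no overlap. It was not called in the fit of all libraries (0.51 ± 0.56, edgeR adjusted p = 0.477) but was in a fit of the compared groups alone (0.52, edgeR adjusted p = 9.28e-05). The labels do not give the time of day of collection, and its part in these values was not tested.

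Other large changes lay outside the lists. Serpina3n, a protease inhibitor of the acute phase, had 208, 257 and 333 CPM in lamin A hearts, 411, 243 and 301 in shRNA hearts and 6.68, 5.29 and 8.15 in controls (5.31 ± 0.32, edgeR adjusted p = 3.06e-10). Its lamin A and shRNA libraries overlapped, and both groups stood far above control. Efnb3, an ephrin ligand of Eph receptors (ENSMUSG00000003934, chromosome 11, 69554092 to 69560205, minus strand), had 10.1, 15.4 and 12.5 CPM in lamin A hearts, 9.2, 6.57 and 9.83 in shRNA hearts and 66.4, 69.9 and 73.7 in controls (-2.46 ± 0.13, edgeR adjusted p = 6.16e-11). Myh7b, a myosin heavy chain gene that hosts miR-499, had 44.8, 41.9 and 32.1 CPM in lamin A hearts, 22.4, 25.6 and 24.9 in shRNA hearts and 174, 172 and 172 in controls (-2.13 ± 0.13, edgeR adjusted p = 2.24e-10). Mylk4, a muscle kinase, had 69.7, 61.6 and 42.1 CPM in lamin A hearts, 14.1, 16.4 and 17.9 in shRNA hearts and 244, 233 and 223 in controls (-2.01 ± 0.22, edgeR adjusted p = 5.18e-07). In these 3 genes the lamin A hearts lay between the other groups. Rbfox1, a splicing regulator of heart and brain (-1.87 ± 0.13), Lgals4, a galectin (-1.91 ± 0.14), Lgi1, a secreted leucine-rich repeat protein (-1.96 ± 0.23), Cngb3, a cyclic nucleotide-gated channel subunit known from cone photoreceptors (-1.95 ± 0.20), and Abca12, a lipid transporter (-1.89 ± 0.22), completed the falls (edgeR adjusted p of 1.03e-06 or less).

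The share of the disease response that remained was measured on genes chosen in a comparison that held none of these libraries. They were those called by 2-fold or more between Lmna shRNA and control hearts of batch LC. The filter, scaling and estimate of spread behind that comparison came from the fit of all libraries, these included. Of 2894 genes raised in batch LC (16.2% of those tested), 2036 (70.4%) were called above control in lamin A hearts, against 24.1% of all genes. By 2-fold or more 1509 (52.1%) were above control, against 9.71% of all genes. Below control 3 were called (1 in each fit that left out lamin A library 1 or 2 or control library 2 or 3). Of 1479 genes lowered in batch LC (8.27%), 1111 (75.1%) were called below control, against 22.1% of all genes. By 2-fold or more 355 (24%) were below control, against 2.5% of all genes, and 4 were called above it (2 without control library 1). Their median distance from control was 1.2 and -0.70 in lamin A hearts, beside 1.69 and -1.27 in the Lmna shRNA hearts of batch LA, which share the control libraries. Set against those shRNA hearts, lamin A hearts were nearer control, being called lower, in 1185 of the raised genes (40.9%), against 13.7% of all genes. In 971 of the lowered genes (65.7%) they were nearer control, being called higher, against 16.1% of all genes. They were farther in 25 raised genes (0.864%) and 2 lowered genes (0.135%). With library totals 4550 genes were raised in batch LC, of which 3400 were above control and 2560 nearer control than in the shRNA hearts. Then 668 were lowered, of which 448 were below control and 389 nearer, and 15 and 4 genes were farther. Without the third control library of batch LC, 2115 of 2974 raised genes (71.1%) were above control and 1145 of 1496 lowered genes (76.5%) below it, and 38 and 5 were farther. In fits of the compared groups alone, 1836 of 2200 raised genes were above control and 1127 of 1384 lowered genes below it.

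Each library gave the same order. Over the 2001 raised genes that averaged 1 CPM or more in either group of batch LC, the median log2 distance from the control mean was 0.995, 0.908 and 0.988 in the lamin A libraries and 1.35, 1.38 and 1.35 in the shRNA libraries. Over 1240 lowered genes it was -0.657, -0.617 and -0.734 in lamin A libraries and -1.2, -1.18 and -1.21 in shRNA libraries. Control libraries lay close to 0, and no lamin A library reached the range of another group.

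**Figure D3:**
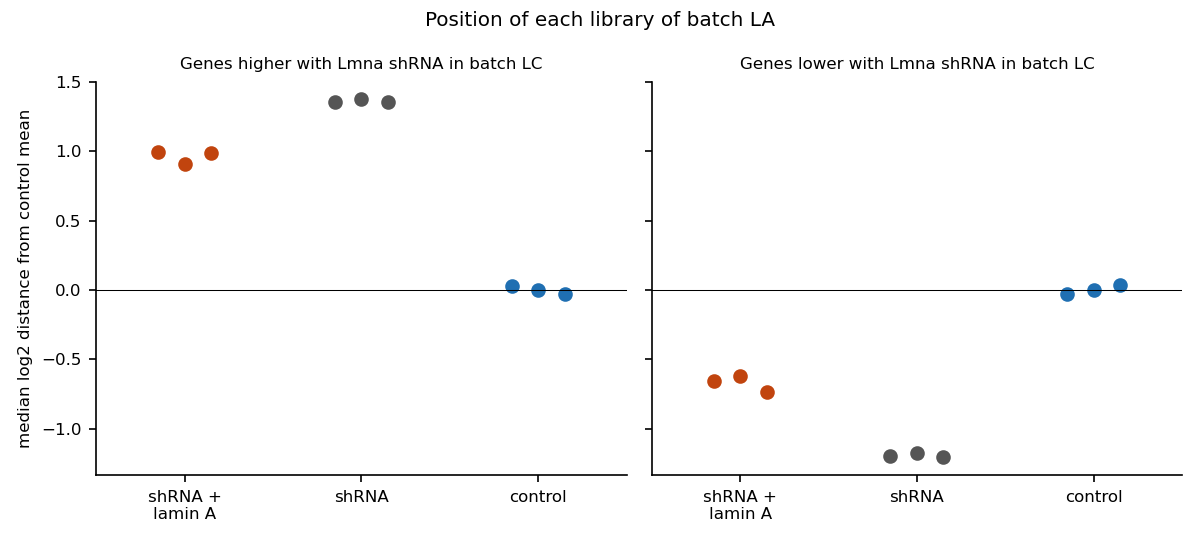
Median log2 distance of each library of batch LA from the mean of the control libraries, over genes raised (left, 2001 genes) and lowered (right, 1240 genes) by 2-fold or more with Lmna shRNA in batch LC; points are libraries. The 3 Lmna shRNA plus lamin A libraries lie between the 3 Lmna shRNA and 3 control libraries on both sides, closer to the shRNA libraries.

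Few response genes were back near control by their intervals. No call against control was made for 855 of the raised genes (29.5%) and 364 of the lowered genes (24.6%). The 95% interval lay within 1.5-fold of control for 29 of the raised genes (1%) and 75 of the lowered genes (5.07%). It did so for 7915 of all genes (44.3%). Low counts widen an interval, and 2001 of the 2894 raised genes averaged 1 CPM or more in either group of batch LC. The share of lowered genes within this margin was 3.1% without lamin A library 2 and 3.36% without control library 1. The share of raised genes was 1.55% without the third control library of batch LC. Of the genes within the margin, 8 raised and 36 lowered ones were still called off control. Of the raised genes in that class, those with the largest shRNA effect included Usp53, of the ubiquitin-specific protease family, with 11.9, 9.7 and 11 CPM in lamin A hearts, 31, 26.1 and 28.5 in shRNA hearts and 10.7, 10.6 and 11.4 in controls. Tnfrsf22, a decoy receptor, had 3.87, 3.66 and 3.52 CPM in lamin A hearts, 9.67, 12.4 and 12.3 in shRNA hearts and 2.96, 3.56 and 4.08 in controls. In both, the lamin A and control libraries overlapped and the shRNA libraries lay above them. The actin nucleator Cobl (0.12 ± 0.11), the interferon-induced Xaf1 (0.31 ± 0.13), Adamtsl3 (0.21 ± 0.13) and the vacuolar proton pump subunit Atp6v1h (0.40 ± 0.083) completed these, Atp6v1h still being called above control (edgeR adjusted p = 0.000511). With library totals Cobl, Xaf1 and Adamtsl3 were called above control as well, at 0.36 (edgeR adjusted p = 0.0091), 0.54 (edgeR adjusted p = 0.00193) and 0.44 (edgeR adjusted p = 0.0135). Xaf1 was also called by DESeq2 (adjusted p = 0.0489), without the filter on low counts and without lamin A library 2 or control library 1, and Adamtsl3 without lamin A library 3. Of the lowered genes, Tuba8, an alpha tubulin, had 98.4, 108 and 104 CPM in lamin A hearts, 46.5, 50.9 and 50.8 in shRNA hearts and 112, 126 and 115 in controls. Mgl2, a lectin of macrophages and dendritic cells, had 15.7, 20.2 and 11.3 CPM in lamin A hearts, 4.81, 6.52 and 6.86 in shRNA hearts and 15.5, 13.1 and 16.4 in controls. Metrn, a secreted factor, had 16, 17.3 and 15.9 CPM in lamin A hearts, 6.28, 8.26 and 8.37 in shRNA hearts and 17.9, 19.6 and 19.9 in controls. For Mgl2 the lamin A and control libraries overlapped, and for Tuba8 and Metrn the lamin A values lay just under the controls. In a fit of the compared groups alone Tuba8 (-0.18, edgeR adjusted p = 0.0202) and Metrn (-0.22, edgeR adjusted p = 0.0248) were called below control. Metrn was also called with the replicate block (-0.23, edgeR adjusted p = 0.0366). The predicted genes Gm15856 (-0.03 ± 0.24), Gm43361 (-0.06 ± 0.19) and Gm10355 (-0.16 ± 0.20) were the others.

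The 3 raised genes below control in lamin A hearts were Npnt (-0.75 ± 0.28, edgeR adjusted p = 0.0361), Gm12963 (-0.86 ± 0.27, edgeR adjusted p = 0.0121) and Gm44126 (-1.3 ± 0.50, edgeR adjusted p = 0.0394), each of which lost its call without at least 1 library. Of the 4 lowered genes above control, AI593442 had 11.5, 9.41 and 11.5 CPM in lamin A hearts, 0.92, 1.31 and 1.34 in shRNA hearts and 2.67, 2.78 and 3.61 in controls (1.84 ± 0.18, edgeR adjusted p = 9.68e-08). All its lamin A libraries stood above the controls and all shRNA libraries below them. Fut2, a fucosyltransferase, had 3.38, 3.37 and 3.03 CPM in lamin A hearts, 1.16, 0.429 and 0.696 in shRNA hearts and 1.69, 1.8 and 1.8 in controls (0.89 ± 0.28, edgeR adjusted p = 0.013) and the same order. The others were the pseudogene Rps18-ps3 (1.45 ± 0.48, edgeR adjusted p = 0.0191) and the predicted gene Gm42208 (1.38 ± 0.53, edgeR adjusted p = 0.0406), which averaged 0.369 and 0.238 CPM in lamin A hearts. Gm42208 lost its call in all 6 fits that left out a library, by DESeq2, without the filter and with the replicate block, and Rps18-ps3 in 3 of those 6 fits and without the filter.

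**Figure D4:**
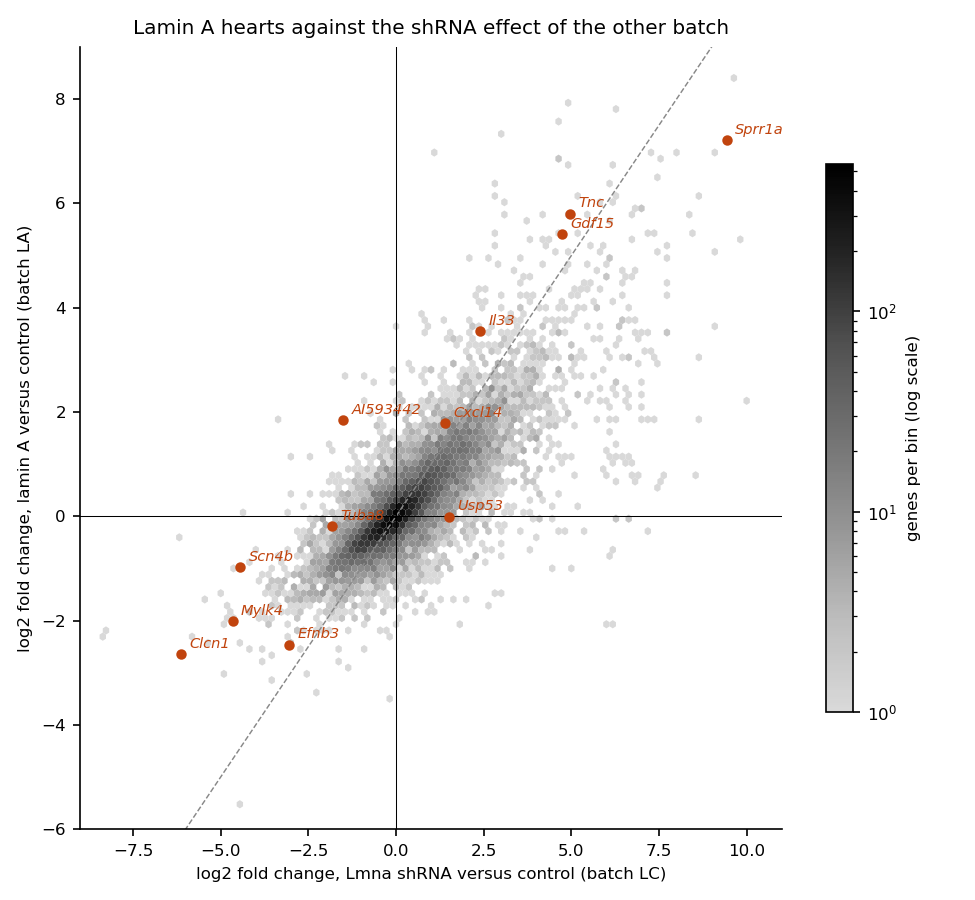
Log2 fold change of each of 17876 genes with Lmna shRNA over control in batch LC (horizontal) and with lamin A over control in batch LA (vertical), 2 comparisons that share no library; shading counts genes on a log scale, the dashed line marks equal changes, and 12 genes are named. Most shifted genes lie nearer 0 on the vertical axis, while Gdf15, Tnc, Il33 and Cxcl14 lie above the line and AI593442 and Usp53 off the main axis.

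A small set of genes stood farther from control than in the shRNA hearts: 195 genes were called above both control and the shRNA hearts and 136 below both, 24 and 8 of them by 2-fold in both. With library totals these were 118 and 157 genes, 16 and 10 of them by 2-fold in both. Without lamin A library 2 they were 126 and 72 (22 and 14 by 2-fold), and without lamin A library 3 the count below both was 80. These comparisons share the lamin A libraries, and the genes named here were chosen after their values were seen, each called above both groups with library totals too. Il33, an alarmin of the interleukin 1 family, had 23.7, 26.6 and 28.2 CPM in lamin A hearts, 12, 12.1 and 12.7 in shRNA hearts and 2.99, 2.16 and 1.51 in controls (3.55 ± 0.22, edgeR adjusted p = 2.91e-10 over control and 1.09 ± 0.17, edgeR adjusted p = 8.68e-05 over shRNA). Aldh1a2, which makes retinoic acid, had 75.9, 101 and 82.6 CPM in lamin A hearts, 38.1, 56.7 and 46.9 in shRNA hearts and 5.09, 5.32 and 6.38 in controls (3.95 ± 0.24, edgeR adjusted p = 2.62e-10 and 0.87 ± 0.19, edgeR adjusted p = 0.00199). Cxcl14, a chemokine, had 30.3, 39.7 and 63.9 CPM in lamin A hearts, 15.6, 21.3 and 26.2 in shRNA hearts and 10.2, 14.6 and 13.9 in controls (1.79 ± 0.24, edgeR adjusted p = 4.13e-06 and 1.09 ± 0.22, edgeR adjusted p = 0.00105). Each was highest in all 3 lamin A libraries. Cebpb, a transcription factor of inflammation and stress, had 16.7, 21.7 and 19.1 CPM in lamin A hearts, 7.46, 9.43 and 8.49 in shRNA hearts and 6.75, 9.57 and 7.39 in controls, and lamin A hearts stood 1.28 ± 0.26 (edgeR adjusted p = 0.000466) above control. Pacsin1, an endocytic adaptor, had 5.25, 5.4 and 6.33 CPM in lamin A hearts, 0.92, 1.17 and 1.04 in shRNA hearts and 1.43, 1.34 and 1.15 in controls (2.11 ± 0.32, edgeR adjusted p = 2.21e-05). In both genes the shRNA and control libraries overlapped and the lamin A libraries lay above both. Angptl4, an inhibitor of lipoprotein lipase, had 94.2, 94.5 and 79.7 CPM in lamin A hearts, 20.8, 33.4 and 30.1 in shRNA hearts and 29.5, 44 and 35.6 in controls (1.3 ± 0.46, edgeR adjusted p = 0.026), and was not called by DESeq2 (adjusted p = 0.12) nor in 4 of the 6 fits that left out a library. Separately, of 6034 genes whose shRNA effect in batch LC had an interval within 1.5-fold, 2004 (33.2%) were called off control in lamin A hearts, against 46.2% of all genes. Of the 6034, 877 were higher (14.5%, against 24.1% of all genes) and 1127 lower (18.7%, against 22.1%), 3 of them by 2-fold or more. The share called off control was 37% with library totals and 25.2% to 30% in the 6 fits that left out a lamin A or control library of batch LA. Without the third control library of batch LC it was 34.9%, and without the third control libraries of both batches 29.4%.

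The distance from control was then compared with that of lamin C hearts from their own controls. No library is shared between the 2 sides, though the third control library of batch LC stood nearer the controls of batch LA. In lamin C hearts 2690 genes (15%) were called against control, 1585 higher (8.87%) and 1105 lower (6.18%), with 554 and 31 by 2-fold or more. With library totals these were 2879 higher and 293 lower, and the count of called genes was 1507 without lamin C library 1 and 1752 without lamin C library 3. The difference between the distances was called for 2616 genes (14.6%), 1313 in the direction of a higher value with lamin A (7.35%) and 1303 lower (7.29%). With library totals these were 2372 and 681, and without lamin C library 2 the count lower was 858. Without the third control library of batch LC they were 1139 and 1197, and without the third control libraries of both batches 853 and 860. Lamin and batch differ together here, so a difference of lamins and a difference of batches that controls do not carry cannot be told apart, and Lmna itself was higher with lamin C.

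For the difference between lamins, 7.35% of all genes were called higher with lamin A and 7.29% lower. A list count near those shares does not set a list apart. By list, 29 of 35 matrix genes stood farther above control with lamin A than with lamin C and 0 less far, with medians of 2.55 and 1.16. Without the third control library of batch LC it was 23 of 35, and without the third control libraries of both batches 21. Fetal and stress genes differed in 8 of 18 cases (medians 1.92 and 0.74) and macrophage markers in 10 of 16 (1.72 and 0.99), all higher with lamin A. Genes of the unfolded protein response were called against control in 0 of 16 cases in lamin C hearts by edgeR, at a median of -0.04, with 4 at an unadjusted p under 0.05, 1 called by DESeq2, 1 with library totals and 1 without the third control library of batch LC. The difference was called higher with lamin A for 10 and lower for 1 (14 and 0 with library totals, 8 and 0 without the third control libraries of both batches). Creld2 had 10.6, 10.9 and 11 CPM in lamin C hearts and 9.97, 11.7 and 13.3 in their controls, and its difference was 0.97 ± 0.17 (edgeR adjusted p = 0.00078). Fatty acid oxidation genes were farther below control with lamin A in 20 of 27 cases, respiratory chain genes in 21 of 40 (12 with library totals, 13 without the third control libraries of both batches) and ion channel genes in 14 of 25 (with 3 the other way). Interferon genes differed in 4 higher and 1 lower of 31 cases (8 and 1 with library totals, medians 0.74 and 0.50) and antigen presentation genes in 0 of 15 by edgeR (medians 0.63 and 0.56), with 0 at an unadjusted p under 0.05, 0 by DESeq2 and 4 without the filter on low counts.

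The largest differences upward were those of Adamts4, a protease of matrix proteoglycans, Tnfrsf11b, the decoy receptor osteoprotegerin, Tnc, Timp1, Spon2, a matrix protein, and Aldh1a2. Adamts4 had 17.9, 14.5 and 15.8 CPM in lamin A hearts and 4.11, 4.31 and 2.52 in their controls, and 0.433, 0.382 and 0.626 CPM in lamin C hearts and 0.196, 0.351 and 3.04 in theirs (difference 3.42 ± 0.73, edgeR adjusted p = 0.00387). Tnfrsf11b had 7.5, 7.59 and 6.8 CPM in lamin A hearts and 0.382, 0.098 and 0.252 in their controls, and 1.53, 0.819 and 0.953 CPM in lamin C hearts and 0.294, 0.246 and 0.573 in theirs (3.32 ± 0.57, edgeR adjusted p = 0.000845). For Adamts4 the third control library of batch LC stood far above the other two. Spon2 had 31.3, 33.3 and 59.8 CPM in lamin A hearts and 11, 12.2 and 8.19 in their controls, and 1.9, 2.21 and 2.5 CPM in lamin C hearts and 1.7, 0.982 and 10.5 in theirs (2.96 ± 0.76, edgeR adjusted p = 0.0128). Without that control library the difference was 1.31 (edgeR adjusted p = 0.0936) for Adamts4 and 1.27 (edgeR adjusted p = 0.214) for Spon2, and Spon2 was also not called on log2(FPKM + 0.1). Without the third control libraries of both batches Tnc (2.66, edgeR adjusted p = 0.0771) and Scn4b (-1.17, edgeR adjusted p = 0.0503) were not called either. The differences of Tnc, Timp1 and Aldh1a2 were 3.0 ± 0.74, 2.99 ± 0.41 and 2.71 ± 0.34. Downward, mt-Co2, the methyltransferase gene Inmt, Timp4, a metalloprotease inhibitor of the heart, Efnb3, Scn4b and Lgals4 differed most. Timp4 had 14.1, 9.94 and 6.46 CPM in lamin A hearts and 29.7, 47 and 33 in their controls, and 45.4, 51.5 and 36.3 CPM in lamin C hearts and 39.2, 48 and 30.1 in theirs (-2.04 ± 0.37, edgeR adjusted p = 0.00116). Efnb3 had 10.1, 15.4 and 12.5 CPM in lamin A hearts and 66.4, 69.9 and 73.7 in their controls, and 42, 45.5 and 47.2 CPM in lamin C hearts and 76.3, 73.8 and 66 in theirs (-1.78 ± 0.18, edgeR adjusted p = 1.46e-05). In both, the lamin A libraries lay below all their controls. The values for Lgals4, Inmt, Scn4b and mt-Co2 were -1.59 ± 0.19, -2.05 ± 0.46, -1.63 ± 0.38 and -2.05 ± 0.47.

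**Figure D5:**
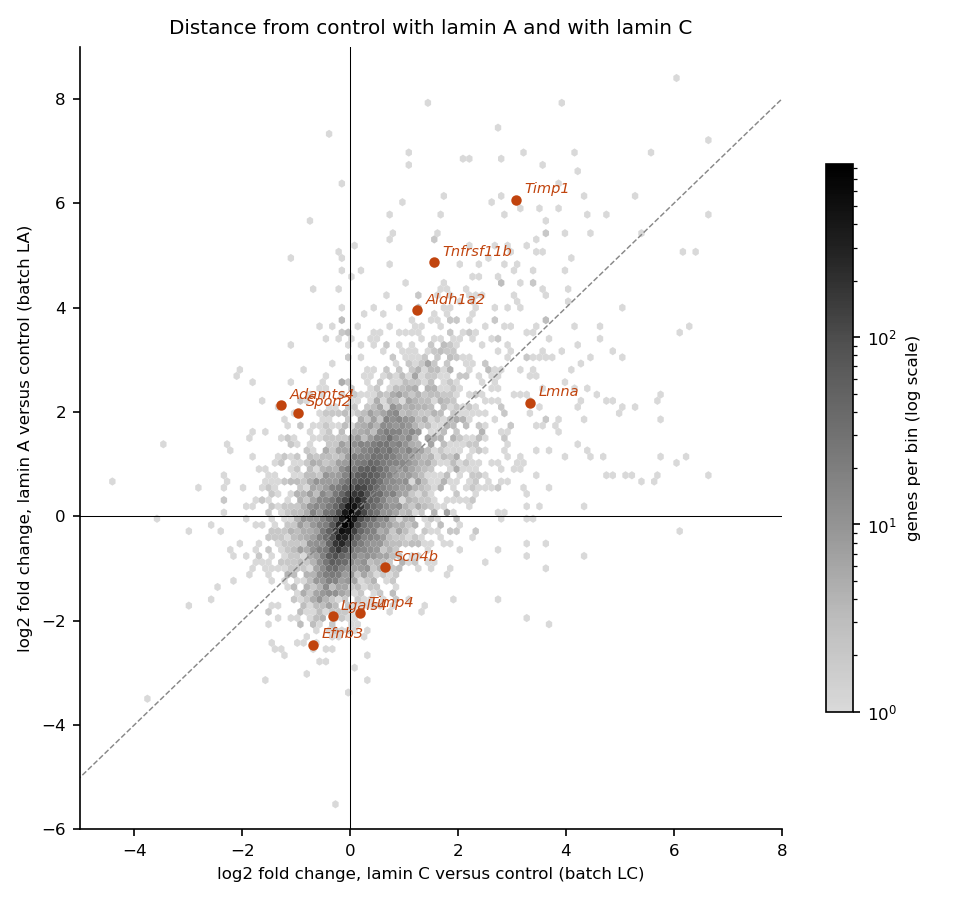
Log2 fold change of each of 17876 genes with lamin C over control in batch LC (horizontal) and with lamin A over control in batch LA (vertical); shading counts genes on a log scale, the dashed line marks equal distance, and 10 genes are named. The bulk of genes is steeper than the dashed line, with Timp1, Tnfrsf11b and Aldh1a2 far above it and Lmna below it.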

How the data were processed

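RNA from the apex of 18 mouse hearts was sequenced, 3 libraries in each of 6 groups. Per the submitters' processing notes, the tools were featureCounts 1.5.0-p3, HISAT2 2.0.5, DESeq2 1.20.0 and StringTie 1.3.3b, with build mm10. The labels give neither the role of each nor the strand setting, so overlapping and antisense genes can share reads. The authors deposited raw counts per gene and FPKM for 54532 genes. Libraries held 31418657 to 41259968 counts.

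All 18 libraries were fitted in 1 model of 6 groups with edgeR 4.0.16 in R 4.3.3 (quasi-likelihood F test, TMM factors, filterByExpr, 17876 genes tested, false discovery rate 0.05). It had 12 residual degrees of freedom and a biological coefficient of variation of 9.13%. No 2 replicates of the lamin A hearts or of their controls agreed within sampling noise (chi-square over degrees of freedom of 7.2 or more). Replicates of the other groups were not checked in this way. Replicate numbers did not pair lamin A with control libraries (r of same-numbered libraries -0.0176 to 0.0154). The deposited FPKM values were used on the log2(FPKM + 1) and log2(FPKM + 0.1) scales with limma 3.58.1 as alternatives, with DESeq2 1.42.0, other scalings, no filter, the compared groups alone and libraries left out.

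The members and gene lists were chosen with earlier results of these data known. Named genes were Lmna, the 10 largest rises and falls of protein-coding genes reaching 5 CPM without overlap, up to 4 called members a list by smallest p, the 6 largest differences from lamin C in each direction, 6 response genes in each direction near control and up to 4 on its other side; further members show where a list was mixed. Some genes that this rule selects are not reported here.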

Additional observations from a re-analysis of the deposited data

Results flagged for a closer look

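Of 162 genes named with the lamin A and control hearts, 104 differed between lamin A and lamin C hearts in their distance from their own controls. Among all genes 14.6% did. The named genes were partly chosen by these same values, so their larger share is not a result. Calls are those of edgeR's test of the difference itself (adjusted p under 0.05), 55 with a positive and 49 with a negative value. A value is the log2 fold change of lamin A over its control minus that of lamin C over its control, so a negative value of a gene below control in both is a greater distance with lamin A. Lamin and batch cannot be told apart in them. No group had enough libraries for a test of outlying samples.

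In the lamina the value was positive for Tmem43 (0.49) and negative for Tmem201 (-0.36) and Sun1 (-0.30). Among fetal and stress genes the value was positive for Nmrk2 (2.28), Fhl1 (1.15), Ddah1 (1.38), Ankrd1 (1.18) and Rcan1 (1.5). In the sarcomere the value was negative for Cmya5 (-0.53), Myl2 (-0.64) and Tnni3 (-0.61). For ion channels and gap junctions the value was positive for Kcne1 (0.76) and negative for Clcn1 (-1.40), Kcnv2 (-1.49), Kcnj11 (-0.62), Kcnj5 (-0.81), Abcc9 (-0.74), Scn4b (-1.63), Kcnip2 (-1.03) and Kcnj3 (-1.23). In calcium handling the value was negative for Pln (-0.68), Trdn (-0.35), Ryr2 (-0.33), Jph2 (-0.39) and Hrc (-0.76). In the matrix the value was positive for Thbs4 (2.35), Timp1 (2.99), Tnc (3.0), Postn (1.71), Col8a1 (1.61), Lox (2.66), Col1a1 (1.37) and Col3a1 (1.49). For fatty acid oxidation the value was negative for Acadm (-0.68), Hadh (-0.67), Etfdh (-0.54) and Slc27a1 (-0.76). In the respiratory chain the value was negative for Atp5a1 (-0.43), Sdha (-0.44) and Ndufv1 (-0.42). Of the mitochondrially encoded genes the value was negative for mt-Nd1 (-0.46), mt-Cytb (-0.36) and mt-Co2 (-2.05). For glucose uptake and glycolysis the value was positive for Slc16a3 (1.29) and negative for Ldhb (-0.51), Eno3 (-0.58), Pfkm (-0.44) and Slc2a4 (-0.63). In the integrated stress response the value was positive for Gdf15 (1.38), Psat1 (1.04), Mthfd2 (1.13), Atf3 (1.52), Asns (0.99) and Nupr1 (1.16) and negative for Vldlr (-0.56) and Cth (-1.51).

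In the unfolded protein response the value was positive for Edem1 (0.53), Pdia4 (0.94), Pdia3 (0.66), Creld2 (0.97), Sdf2l1 (1.08), Manf (0.86) and Pdia6 (0.79) and negative for Herpud1 (-0.67). For autophagy and atrophy the value was positive for Ctsb (0.53). Among p53 targets the value was positive for Phlda3 (0.72). In the interferon response the value was positive for Ifitm3 (0.59), Zbp1 (0.89) and Ifi27l2a (1.25). For the cell cycle the value was positive for Mcm6 (0.73). In the core clock the value was negative for Nr1d2 (-0.97) and Per3 (-1.35). Of the ribosomal protein genes the value was positive for Rpl3 (0.46). Of fibroblast markers the value was positive for Mfap5 (1.49), Ly6a (0.59), Pi16 (0.91) and Dcn (0.55). Of macrophage and monocyte markers the value was positive for Cd68 (1.13), C1qc (0.92), C1qa (0.86), Lgals3 (1.17) and Trem2 (1.13). Outside the lists the positive values were those of Serpina3n (1.92), Adamts4 (3.42), Tnfrsf11b (3.32), Spon2 (2.96), Aldh1a2 (2.71), AI593442 (1.67), Rps18-ps3 (2.17), Gm42208 (2.33), Il33 (2.55) and Cxcl14 (1.65). The negative values there were those of Lmna (-1.16), Efnb3 (-1.78), Myh7b (-1.46), Mylk4 (-1.25), Lgi1 (-1.31), Cngb3 (-1.37), Lgals4 (-1.59), Abca12 (-1.26), Rbfox1 (-1.32), Inmt (-2.05), Timp4 (-2.04) and Gm12963 (-1.81).

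The values of Adamts4 (3.42) and Spon2 (2.96) were 1.31 and 1.27 and not called without the third control library of batch LC. Without it and the third control library of batch LA those of Tnc and Scn4b were 2.66 and -1.17 and not called. With library totals the values of Tmem201, Sun1, Ryr2, mt-Cytb and Herpud1 kept their sign and were not called.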

How the results depend on the processing

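Scaling by library totals moved the split of calls most. It gave 7676 genes higher and 1760 lower in lamin A hearts versus control, 10637 and 2270 in Lmna shRNA hearts versus control, 1280 and 6205 in lamin A versus Lmna shRNA hearts, 2879 and 293 in lamin C hearts versus control, and 2372 and 681 for the difference between lamins. With libraries left out, lamin A versus control gave 7147 to 7625 called genes, lamin A versus Lmna shRNA 4097 to 5267, and the difference 1713 to 2521, with 853 to 1283 higher and 858 to 1238 lower. Lamin C versus control gave 1507 to 2680 called genes, 1066 to 1620 higher and 441 to 1060 lower. Leaving out libraries of batch LC, alone or with the third control library of batch LA, and recounting the genes set against shRNA hearts were alternatives chosen after seeing the data.

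Among genes of the shRNA response of batch LC, the percent raised and within 1.5-fold of control was 1 and became 1.71 with library totals, 1.73 without the filter, 4.83 and 2.24 by limma on log2(FPKM + 1) and log2(FPKM + 0.1), 1.86 in a fit of the compared groups alone and 32.4 for genes called at any fold, with 0.712 to 1.58 with libraries left out. The percent lowered and within was 5.07 and became 8.31, 53.5 (groups alone, any fold) and 3.1 to 6.42 with libraries left out. Raised genes on the other side of control numbered 3, against 1, 5, 0, 1 and 21 (library totals, no filter, log2(FPKM + 1), groups alone, any fold) and 1 to 4 with libraries left out. Lowered ones numbered 4, against 1, 2 and 45 (log2(FPKM + 1), log2(FPKM + 0.1), any fold) and 2 to 6. The percent on the same side held at 63.8 to 71.6 (raised) and 67.6 to 76.5 (lowered) with libraries left out. The mitochondrial share differed by -6.04 to -4.91 percentage points. The cause of these moves was not tested.

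The replicate number entered as a block gave 8051 called genes, 7912 of them shared with the fit without it. Same-numbered libraries shared only a number. No gene named against control reversed its direction under any alternative run while called in either fit. Counted over genes and settings, 76 values lost a call, 16 gained one and 3377 did neither.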
